A study of Mus musculus with 162 samples.

Results

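The genes described here are 29 genes of cholesterol metabolism, among the 53686 gene rows of a count table covering 9 organs of the fasted mouse. They were chosen by name for what their products do, not for their values. Acat2, Hmgcs1, Mvk, Pmvk, Mvd, Idi1 and Fdps lead from acetyl-CoA to farnesyl diphosphate, Fdft1, Sqle and Lss turn farnesyl diphosphate into lanosterol, and Cyp51, Tm7sf2, Msmo1, Nsdhl, Hsd17b7, Ebp, Sc5d and Dhcr7 turn lanosterol into cholesterol. Srebf2, Scap, Insig1 and Insig2 sense sterols, Stard4 carries cholesterol between membranes, Mylip marks lipoprotein receptors for degradation, and Nr1h3, Abca1, Abcg1, Abcg5 and Abcg8 are the liver X receptor alpha and the transporters that export sterols.

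The study profiled polyadenylated RNA from olfactory bulb (OB), brain (BRN, the forebrain without the olfactory bulb), cerebellum (CBL), brainstem (BST), stomach (STM), liver (LIV), interscapular brown fat (iBAT), perigonadal white fat (pgWAT) and posterior subcutaneous white fat (psWAT). All 18 mice were untreated adult C57BL/6J males without a transgene, and each gave all 9 organs. They were fed without limit (0 h) or had lost food 2, 8, 12, 18 or 22 h earlier, with 3 mice per time, and every mouse was killed at about the same clock time, shortly after lights went off. The length of the fast therefore changes together with the clock time at which food was taken away, and these cannot be told apart; the 2 h mice lost their food just before the dark phase in which mice do most of their eating.

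Cells make cholesterol when the endoplasmic reticulum runs short of it: the SCAP protein then escorts the Srebf2 product to the Golgi, where it is cut into a transcription factor that turns on the synthesis genes. When sterols are plentiful, the INSIG proteins hold this pair back, and INSIG1 is itself a target of the pathway. Oxidised sterols also activate the liver X receptors, which turn on Abca1, Abcg1, Abcg5, Abcg8 and Mylip. Liver is a main site of cholesterol synthesis, and it is known to lower synthesis in long fasts.

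Of the libraries, 1 for each organ of each mouse, all but 5 were analysed, with 3045845 to 27801717 counted reads each (median 8735554). Values are CPM, the counts of a gene relative to all counts of its library, scaled within the organ, so 3 counts, taken as the limit of detection, equal 0.108 to 0.985 CPM depending on the library. A gene was tested in an organ when it reached 0.86 to 1.45 CPM, depending on the organ, in at least 3 libraries. All 29 genes passed in LIV, 28 in STM, 27 in iBAT, BST and pgWAT, and 26 in OB, BRN, CBL and psWAT. Fdps fell short in OB, BRN, CBL, pgWAT and psWAT, Abcg5 in OB, BRN, CBL, BST, iBAT and psWAT, and Abcg8 in all organs but LIV. Of the 50-base stretches of Fdps's exons, 26.2% also occur in other annotated genes, so its low counts are less certain in every organ. Each organ carried its own defining markers, though unevenly in psWAT, with hepatocyte markers summing to 69805 CPM or more in LIV and brown adipocyte markers to 4251 CPM or more in iBAT. Libraries stood apart in the white fats: summed white adipocyte markers ranged from 52.4 to 5962 CPM in psWAT (median 776 CPM), where T and B lymphocyte markers ranged from 61.9 to 1482 CPM (median 930 CPM, against medians of 0.291 to 5.04 CPM in the other organs). The 12 h replicate 3 library of psWAT held 4204 CPM of neuron markers, and the 22 h replicate 2 library of pgWAT held 872 CPM of white adipocyte markers against 5592 to 12394 CPM in the others. In a bulk organ, fewer cells of a type and less RNA per cell cannot be told apart.

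The first comparison, 2 h without food against 0 h, asks how early the genes respond. In LIV, Fdft1, Insig1 and Sc5d fell, and in iBAT Sqle, Insig1, Sc5d, Cyp51 and Mvd fell. The fold change was below 0 for 23 of 29 genes tested in LIV and 22 of 27 in iBAT, where Fdft1 (means of 135.1 and 155.5 CPM) and Ebp (18.57 and 19.8 CPM) were among the rest. Few genes of either organ were called this early, which with 3 mice a side does not show that the rest were unchanged. In LIV, 20 of 14023 genes were called (adjusted p under 0.05, edgeR's quasi-likelihood test with Benjamini-Hochberg adjustment over all genes of the organ), a background of 0.143%, and 3 of the 29 genes were among them. In iBAT, 36 of 14529 genes were called (0.248%), and 5 of the 27 genes tested were among them. No gene of the set was called in STM, pgWAT, psWAT or the 4 nervous organs, where the background was 0% or, in OB, 0.00597%. An unadjusted p under 0.05 was reached by 4, 8 and 14 genes of the set in STM, pgWAT and psWAT, and by 0, 1, 1 and 2 in OB, BRN, CBL and BST. The share of all genes with an unadjusted p under 0.05 is not given.

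Insig1, the sterol-regulated anchor of the pathway, stood at 317, 348 and 471 CPM in the 3 LIV libraries at 0 h and at 202, 150 and 127 CPM at 2 h. The fed and 2 h livers did not overlap, and the log2 fold change was -1.25 (SE 0.227, adjusted p = 0.0372). In iBAT it went from 418, 404 and 538 CPM to 164.7, 134.1 and 170.8 CPM, a log2 fold change of -1.53 (SE 0.233, adjusted p = 0.0101). Again all 2 h libraries lay below all fed ones. In BST the values were 158, 151.3 and 134.5 CPM at 0 h and 140, 127 and 139.5 CPM at 2 h. In OB they were 81.2, 81.5 and 59.3 CPM and then 70.7, 70.5 and 73.5 CPM, so the groups overlapped in both organs.

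Sqle, the squalene epoxidase that is a control point of the pathway, was at 34.9, 25.1 and 28.6 CPM in fed iBAT and at 9.00, 7.94 and 7.76 CPM after 2 h. The log2 fold change was -1.84 (SE 0.260, adjusted p = 0.00637), and no later iBAT library returned to the fed range. In LIV, Sqle was at 53.2, 56.7 and 63.1 CPM fed and at 33.1, 30.2 and 20.3 CPM at 2 h; the groups did not overlap, but the change was not called in the fit of all LIV libraries. Sc5d, the sterol C5-desaturase of a late step, was at 194, 173 and 201 CPM in fed iBAT and at 57.7, 50.3 and 49.7 CPM at 2 h, a log2 fold change of -1.85 (SE 0.296, adjusted p = 0.0130). In LIV it was at 486, 523 and 586 CPM and then at 353, 291 and 274 CPM (log2 fold change -0.80, SE 0.159, adjusted p = 0.0413). All 2 h libraries were below all fed ones in both organs.

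Fdft1, squalene synthase, separated LIV from iBAT. It was at 114.6, 109.3 and 126.3 CPM in fed LIV and at 71.3, 50.7 and 48.5 CPM at 2 h, a log2 fold change of -1.04 (SE 0.157, adjusted p = 0.0125). In iBAT the fed libraries held 127, 105.3 and 173 CPM and the 2 h libraries 147.3, 152.4 and 166.8 CPM, all within the fed range. Of the 50-base stretches of Fdft1's exons, 26.5% also occur in other annotated genes, mostly on the opposite strand in Ctsb, so its counts are less certain than those of Insig1 or Sqle. Mvd, which makes isopentenyl diphosphate, was at 14.2, 13.7 and 28.9 CPM in fed iBAT and at 3.04, 3.08 and 3.48 CPM at 2 h (log2 fold change -2.56, SE 0.486, adjusted p = 0.0330). Cyp51, the lanosterol demethylase, was at 58.6, 60.9 and 65.4 CPM and then at 22.6, 24.8 and 26.9 CPM (log2 fold change -1.32, SE 0.229, adjusted p = 0.0185).

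These counts rest on 3 mice a side. Without LIV 0 h replicate 1, 2 h replicate 2 or 2 h replicate 3 the LIV count was 0, without 0 h replicate 2 or 0 h replicate 3 it was 1, and without 2 h replicate 1 or 18 h replicate 3 it was 5. Without iBAT 2 h replicate 2 or 2 h replicate 3 the iBAT count was 0, and without 0 h replicate 3 or 2 h replicate 1 it was 1. DESeq2 called 7 genes of the set in LIV and 9 in iBAT, and its share over all genes is not given. Lane, here and below, was read from the ending of the library names, and no sequencing run is named. Some LIV names share both sample number and lane with names in BRN or iBAT, so a lane number can cover different runs. In iBAT, lane was not balanced: 2 fed libraries ran on lane 8 and 1 on lane 5, and 2 libraries of 2 h ran on lane 5 and 1 on lane 4, and with lane as a covariate, in a fit without the 22 h libraries, none of the 27 genes was called at 2 h, nor was any of all 14488 genes (0%); the same fit without the lane term called 7 of the 27. In the fit with lane, 14 of the 27 genes, and 1535 of all 14488, had an unadjusted p under 0.05. Of the 27 genes 22 were lower, and the log2 fold change was -1.61 for Sqle (SE 0.274, adjusted p = 0.119) and -1.38 for Insig1 (SE 0.288, adjusted p = 0.175). The 0 h and 2 h livers were sequenced on the same lane, and a fit of that lane's libraries alone called 6 genes, all lower, with a background of 0.351%: Fdft1, Insig1, Msmo1, Sqle, Sc5d and Tm7sf2.

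**Figure D1:**
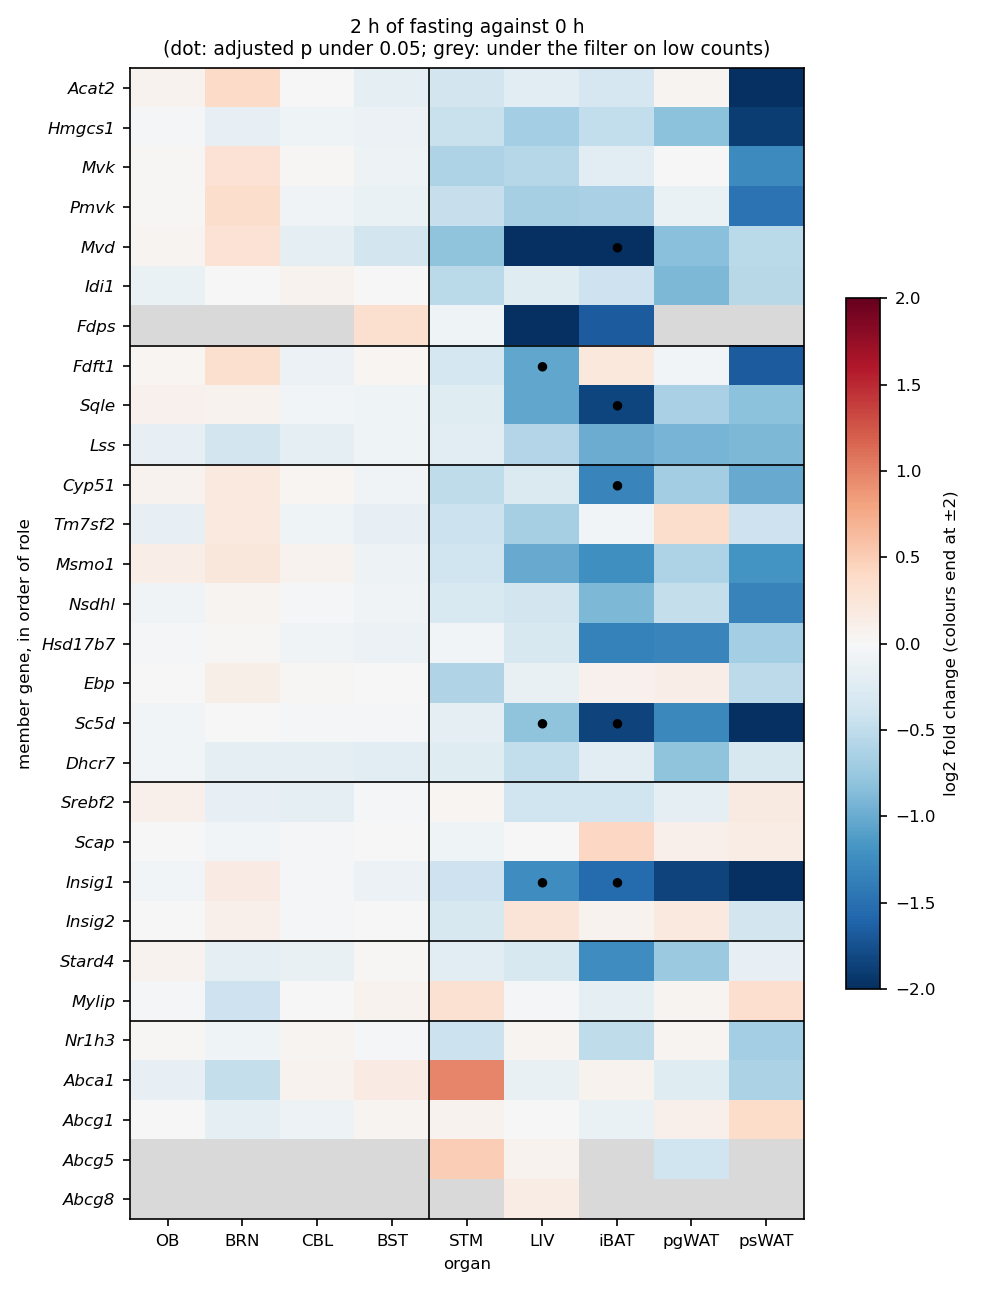
Log2 fold change of each of the 29 genes (rows, in order of role) at 2 h against 0 h in each of the 9 organs (columns); blue is lower and red is higher at 2 h, a dot marks an adjusted p under 0.05, and grey marks a gene under the filter on low counts. The deepest blue cells lie right of the vertical line that separates the 4 nervous organs, and the 8 dots are in LIV and iBAT.

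The separation of the samples showed the same contrast between organs without a test. All 3 libraries at 2 h lay below all 3 fed libraries for 13 of 29 genes in LIV, where 9.07% of all tested genes did so, for 13 of 27 in iBAT (background 6.52%), 11 of 28 in STM (4.86%), 9 of 27 in pgWAT (6.96%) and 11 of 26 in psWAT (5.62%). In the nervous organs this held for 0 of 26 genes in OB (3.36%), 2 of 26 in BRN (8.54%), 1 of 26 in CBL (4.95%) and 2 of 27 in BST (4.41%). In the opposite direction, all 3 libraries at 2 h lay above all fed ones for 5 of 26 genes in BRN (Acat2, Fdft1, Mvk, Pmvk and Tm7sf2), where 9.62% of all tested genes did so, for 1 gene each in OB (Srebf2, 3.83%), CBL (Cyp51, 4.88%), STM (Abca1, 6.62%) and psWAT (Scap, 5.20%), and for none in BST (4.05%), LIV (9.23%), iBAT (8.38%) and pgWAT (6.01%). The median log2 fold change of the genes tested was -0.36 in LIV, -0.49 in iBAT, -0.32 in STM, -0.39 in pgWAT and -0.68 in psWAT. In the nervous organs it lay between -0.06 and 0.04, and over all genes it lay between -0.01 and 0.02 in every organ. In BRN the libraries of 0 h and 2 h shared no lane, so lane and the change at 2 h cannot be told apart there.

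The difference between organs was then tested itself, in a fit of all libraries analysed with the mouse as a block: the change from 0 h to 2 h averaged over the 5 organs outside the nervous system, minus its average over the 4 nervous organs. This comparison was chosen after the values above had been seen. The fit holds no lane term, and the lane limits of BRN and iBAT given above hold here too. Of 11679 genes expressed in all organs, 75 were called (0.642%), and 8 of the 26 genes of the set tested were among them, all 8 with the lower change outside the nervous system. Insig1 led, with a difference of -1.73 in log2 fold change (SE 0.250, adjusted p = 5.32e-06), followed by Sc5d at -1.17 (adjusted p = 2.38e-05), Msmo1, a C4-methylsterol oxidase, at -0.94 (adjusted p = 6.13e-05) and Mvd at -1.25 (adjusted p = 9.01e-05). Cyp51, Hmgcs1, Acat2 and Sqle were also called, with differences of -0.70 to -0.89. The median over the 26 genes was -0.52, with 22 of 26 below 0, against 0.01 over all genes. The receptor and transporter genes were not called: Abca1 differed by 0.14 (SE 0.180), Abcg1 by 0.18 (SE 0.179), Nr1h3 by -0.26 (SE 0.231), and Srebf2 itself by -0.05 (SE 0.175).

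Without psWAT, whose libraries varied most in adipocyte markers, 6 genes were called with a background of 0.487% (Cyp51, Insig1, Msmo1, Mvd, Sc5d and Sqle), and the difference for Insig1 was -1.22. Without psWAT and pgWAT, 9 were called, but the background was then 5.06%. Leaving out mouse 1 at 0 h, mouse 2 at 2 h or mouse 3 at 2 h left 4 genes called (Insig1, Msmo1, Mvd and Sc5d), with backgrounds of 0.111% to 0.129%.

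The 5 genes most in point here are shown by the 250 bases before their transcription start: the 4 that stayed called in every one of these fits, and Hmgcs1, the HMG-CoA synthase whose promoter is a textbook example of sterol control. The sequences are from RefSeq, build GRCm38.p6, 5′ to 3′ on the strand of the gene, and capitals mark the box CCAAT, a binding site of the factor NF-Y that works together with the Srebf2 product, and the heptamer CACCCCA, each on either strand (ATTGG and TGGGGTG).
Insig1 promoter, chr5:28071162-28071411, plus strand: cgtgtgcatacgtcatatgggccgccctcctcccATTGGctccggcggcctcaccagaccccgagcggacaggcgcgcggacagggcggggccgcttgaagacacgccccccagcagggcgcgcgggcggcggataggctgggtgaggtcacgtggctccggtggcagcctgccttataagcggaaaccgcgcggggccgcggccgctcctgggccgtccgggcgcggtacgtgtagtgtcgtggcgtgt
Sc5d promoter, chr9:42264301-42264550, minus strand: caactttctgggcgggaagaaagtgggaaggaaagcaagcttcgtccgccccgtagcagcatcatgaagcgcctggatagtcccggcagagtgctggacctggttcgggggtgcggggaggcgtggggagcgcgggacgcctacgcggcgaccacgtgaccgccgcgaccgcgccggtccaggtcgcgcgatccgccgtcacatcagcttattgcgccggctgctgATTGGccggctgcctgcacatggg
Msmo1 promoter, chr8:64733579-64733828, minus strand: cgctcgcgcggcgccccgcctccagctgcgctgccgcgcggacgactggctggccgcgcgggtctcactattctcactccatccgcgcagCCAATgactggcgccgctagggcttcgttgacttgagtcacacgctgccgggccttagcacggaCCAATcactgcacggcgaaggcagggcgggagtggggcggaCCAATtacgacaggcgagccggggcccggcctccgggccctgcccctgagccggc
Mvd promoter, chr8:122443423-122443672, minus strand: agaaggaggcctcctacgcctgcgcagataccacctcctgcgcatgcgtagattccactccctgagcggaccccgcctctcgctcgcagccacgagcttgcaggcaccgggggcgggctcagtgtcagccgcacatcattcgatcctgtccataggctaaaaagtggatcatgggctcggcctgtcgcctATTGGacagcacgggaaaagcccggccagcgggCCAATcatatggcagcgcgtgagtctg
Hmgcs1 promoter, chr13:119690101-119690350, plus strand: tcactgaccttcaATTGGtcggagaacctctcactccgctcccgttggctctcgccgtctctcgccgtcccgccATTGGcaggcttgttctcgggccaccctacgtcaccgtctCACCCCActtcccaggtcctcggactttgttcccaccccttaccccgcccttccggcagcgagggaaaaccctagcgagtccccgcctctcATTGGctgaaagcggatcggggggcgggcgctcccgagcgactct

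Promoters were matched for 24 of the 29 genes. CCAAT occurred, on either strand, in 17 of the 24 (70.8%), against 33.8% of 32851 mouse promoters of the same length, and 10 of the 24 held it at least 2 times. It was absent from these windows of Acat2, Dhcr7, Scap, Nr1h3, Abca1, Abcg5 and Abcg8, which are 4 genes of the receptor and efflux group, 1 sensor and, of the synthesis genes matched, Acat2 and Dhcr7; Abcg1 was not matched. The window depends on the start used: the RefSeq start lies 7718 bases from the Gencode start of the gene for Nr1h3, 523 bases for Tm7sf2 and 214 bases for Msmo1. CACCCCA occurred in 3 of 24 (Acat2, Hmgcs1 and Srebf2, 12.5%), against 6.68% of promoters, and the E-box CACGTG in 4 of 24 (Hsd17b7, Sc5d, Insig1 and Abca1, 16.7%), against 6.02%. The GC-rich hexamer CCGCCC occurred in 18 of 24 (75%), against 32.7%. In Insig1 the CCAAT box starts 216 bases before the start used here, in Sc5d 24 bases, in Msmo1 160, 96 and 55 bases, in Mvd 60 and 27 bases, and in Hmgcs1 237, 176 and 45 bases, with CACCCCA between the last of these boxes and the one before it. These are matches of letters, and no binding was measured.

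**Figure D2:**
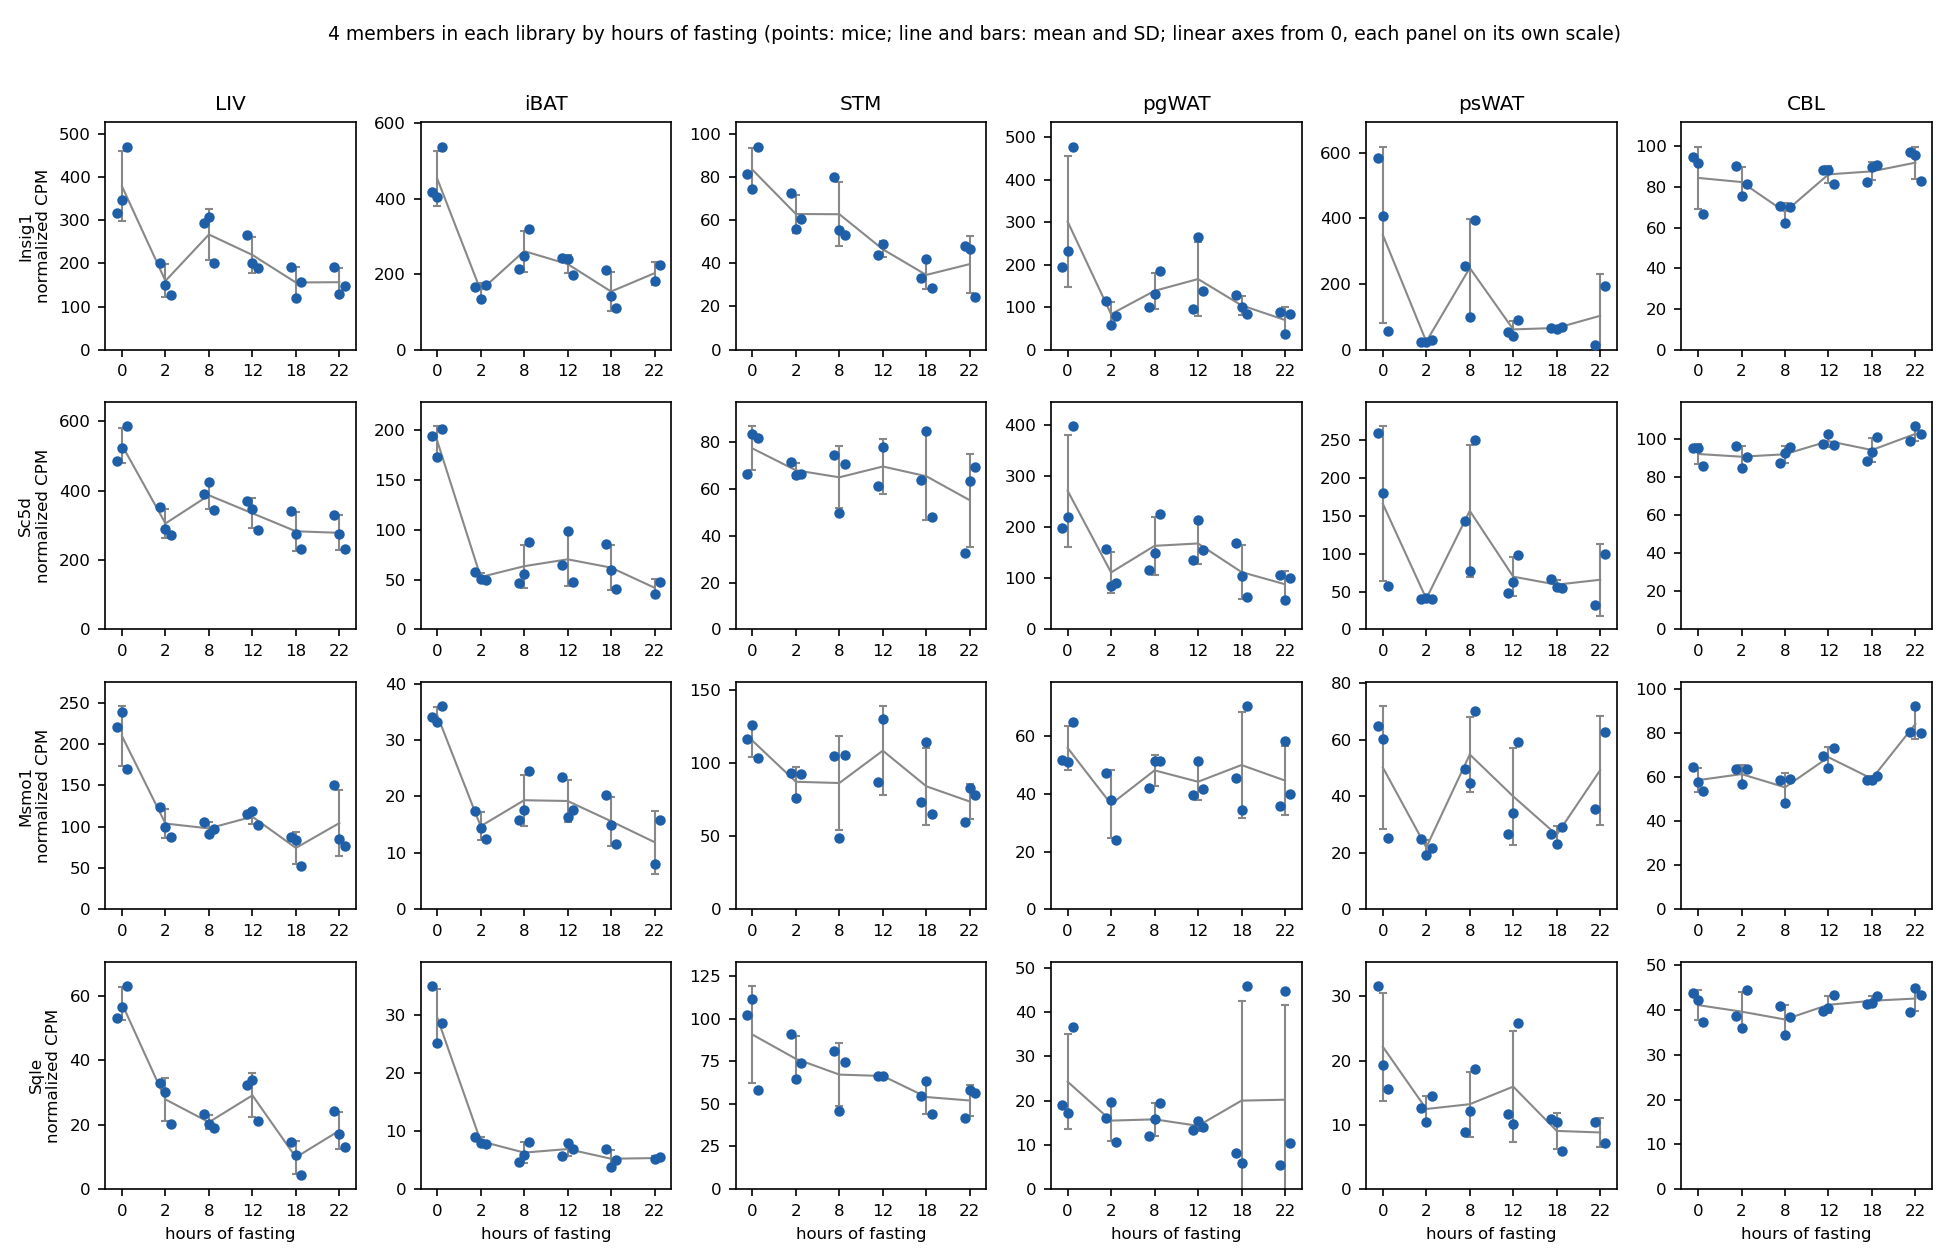
Level of Insig1, Sc5d, Msmo1 and Sqle (rows; CPM, linear axes from 0, each panel on its own scale) in each library by hours of fasting, for LIV, iBAT, STM, pgWAT, psWAT and CBL (columns); points are mice, the line and bars are the mean and SD of the 2 or 3 mice of a time. In iBAT all 4 genes stay under the fed level from 2 h on, in LIV they dip at 2 h and have their lowest means at 18 or 22 h, and in CBL the points at 0 and 2 h overlap for all 4 genes.

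In STM, Cyp51 was at 148.01, 135.4 and 129 CPM at 0 h and at 118.05, 79.0 and 93.8 CPM at 2 h, and Dhcr7, the reductase of the last step, at 37.3, 34.5 and 34.4 CPM and then at 26.4, 34.3 and 29.2 CPM. These were the only genes of the set with every fasted STM library below every fed one, where 0.209% of all genes had this pattern. Abca1, the transporter that loads cholesterol onto lipoproteins, was at 8.57, 16.2 and 6.79 CPM fed and at 19.9, 22.6 and 19.9 CPM at 2 h, all above the fed libraries. None of these 3 changes was called at 2 h.

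In psWAT, markers of cell types moved together with the genes. Insig1 was at 585, 408 and 56.1 CPM at 0 h and at 21.8, 24.2 and 27.98 CPM at 2 h, while the summed white adipocyte markers (Adipoq, Plin1 and Lep) were at 4631, 2972 and 251 CPM and then at 245, 136.2 and 126.1 CPM in the same libraries. The summed T and B lymphocyte markers were at 411, 741 and 1482 CPM fed and at 1191, 930 and 1219 CPM at 2 h there. Acat2 followed the same order, with 170.98, 140 and 30.6 CPM and then 25.1, 14.2 and 22.2 CPM. The fed library with the fewest adipocyte markers was thus also the one with the lowest Insig1 and Acat2, and the part of adipocyte and lymphocyte content in the psWAT values was not tested. In pgWAT the same markers were at 6772, 8254 and 8781 CPM fed and at 10149, 5592 and 6157 CPM at 2 h, so the groups overlapped. There Insig1 was at 195, 231.06 and 477 CPM fed and at 113.7, 57.9 and 78.9 CPM at 2 h, without overlap. Within each of these groups Insig1 followed the order of the markers, and the part of adipocyte content was not tested. In iBAT, where Insig1 fell, the brown adipocyte markers were at 10954, 7115 and 6161 CPM fed and at 6141, 5448 and 4652 CPM at 2 h, so every 2 h library lay below every fed one in these markers as in Insig1, and the part of brown adipocyte content was not tested. The white adipocyte markers, which brown fat shares, were at 1896, 1744 and 2025 CPM and then at 1878, 1730 and 1786 CPM. In LIV the hepatocyte markers summed to 89116, 87714 and 79233 CPM fed and to 82486, 80290 and 84437 CPM at 2 h, so these groups overlapped where Insig1 did not.

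**Figure D3:**
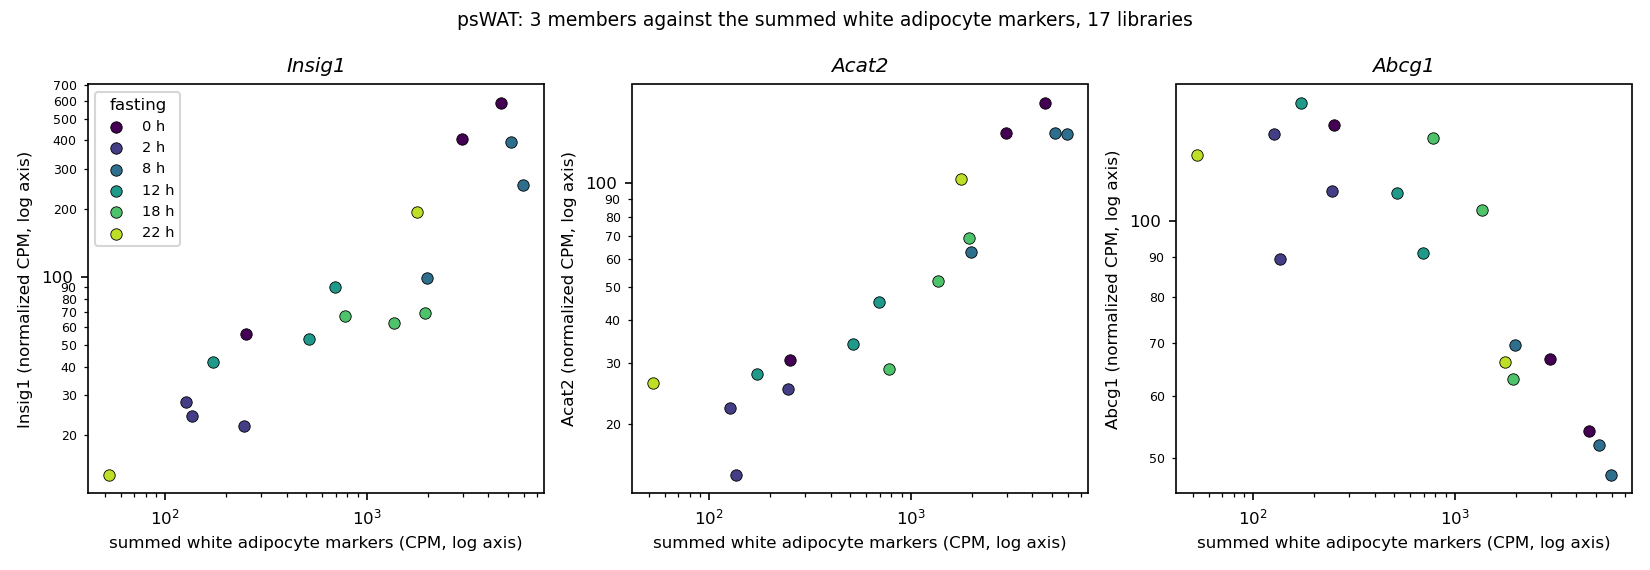
Insig1, Acat2 and Abcg1 (panels; CPM, log axes) against the summed white adipocyte markers (CPM, log axis) in the 17 psWAT libraries, coloured by hours of fasting. The 2 h libraries hold 126.1 to 245 CPM of the markers and sit at the low end for Insig1 and Acat2, beside libraries of other times with as few markers, while the fed libraries spread over 251 to 4631 CPM of markers.

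The next question is how long the fall lasted. In iBAT, 12 genes of the set were lower in every one of the 14 fasted libraries than in every fed one, where 0.950% of all genes were: Mvd, Pmvk and Fdps of the first steps, Sqle and Lss of the middle steps, Cyp51, Msmo1, Nsdhl, Hsd17b7 and Sc5d of the last steps, and Insig1 and Stard4. In LIV, 7 genes had this pattern (0.891% of all genes): Fdft1, Sqle, Msmo1, Tm7sf2, Ebp, Sc5d and Insig1. Only Dhcr7 had it in pgWAT (0.402%) and none did in psWAT (0.0120%). Fdps in iBAT rests on low values, 1.96 to 3.76 CPM fed and 0.634 to 1.60 CPM at 2 h. Counted by time, the calls against 0 h in iBAT were 5, 5, 5, 8 and 20 at 2, 8, 12, 18 and 22 h, with backgrounds of 0.248%, 0.392%, 0.248%, 0.275% and 41%. In LIV they were 3, 1, 8, 20 and 12, with backgrounds of 0.143%, 0.471%, 11.9%, 9.97% and 4.15%. All livers of 12, 18 and 22 h ran on another lane than the fed ones, and with lane as a covariate the number of genes called at any time in LIV went from 22 to 5. In LIV and iBAT, all calls by time in the fits without a lane term were lower than at 0 h, apart from Abcg5 at 18 h in LIV and Fdft1, Ebp and Nr1h3 at 22 h in iBAT.

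At 22 h the 2 analysed iBAT libraries differed from the fed ones in 5960 of 14529 genes. They ran on lanes that held no other iBAT library analysed, so lane and time cannot be told apart for this step, and 1 of them had 3156101 counts. Fdft1 was at 371 and 418 CPM there, above every one of the 15 other iBAT libraries (105.3 to 214 CPM), and Abca1 was at 30.3 and 60.6 CPM against 89.4 to 219 CPM in the others. Without the 22 h libraries the joint test of the remaining times called 65 of 14488 genes (0.449%), and 9 of the 27 genes of the set were among them. At 18 h against 0 h, 55 genes were then called (0.380%), 10 of them of this set and all 10 lower. At 18 h against 0 and 2 h together only 2 genes of 14488 were called (0.0138%), both of this set: Sqle (log2 fold change -1.57) and Cyp51 (-1.19), each with an adjusted p of 0.0290.

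In LIV the course was not a straight line. Msmo1 was at 221, 239 and 169.4 CPM fed, 123.6, 99.8 and 88.1 CPM at 2 h, 106, 90.9 and 96.8 CPM at 8 h, 115.4, 118.97 and 102.1 CPM at 12 h, 87.0, 83.8 and 52.1 CPM at 18 h and 150.8, 85.4 and 76.98 CPM at 22 h. It had thus reached its lower range by 2 h. Insig1 was at 294, 307 and 200 CPM at 8 h and 267, 201 and 190 CPM at 12 h, with means between those of the 2 h and the fed livers, and then at 190, 120.7 and 155.7 CPM at 18 h. Sqle reached its lowest values at 18 h, with 14.5, 10.7 and 4.39 CPM, and was at 24.4, 17.2 and 12.9 CPM at 22 h.

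The comparison with the most mice sets 18 and 22 h (late) against 0 and 2 h (early), 6 livers a side. Of the 29 genes, 20 were called in LIV, 19 lower and 1 higher, with a background of 15.0% of all genes in either direction and 7.20% lower. By role, 6 of 7 genes from acetyl-CoA to farnesyl diphosphate fell, 2 of 3 to lanosterol, 7 of 8 to cholesterol, 2 of 4 sensors (Insig1 and Insig2), Stard4, and Abca1 among the 5 receptor and efflux genes, while Abcg5 rose. Ebp, Fdft1, Fdps, Srebf2, Scap, Mylip, Nr1h3, Abcg1 and Abcg8 did not pass. The median over the set was -0.59 on the log2 scale. Since 2 h livers were already low in several genes, this contrast counts the early fall against itself; against 0 h alone the late fall in Insig1 was -1.28 at 18 h and -1.27 at 22 h, close to the -1.25 at 2 h.

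Sqle fell most among the genes with the smallest p. The early livers held 20.3 to 63.1 CPM and the late livers 4.39 to 24.4 CPM, a log2 fold change of -1.58 (SE 0.231, adjusted p = 0.000664). Nsdhl, a C4-decarboxylating sterol dehydrogenase, was at 48.3 to 86.7 CPM early and at 35.9, 16.4 and 17.0 CPM at 18 h and 53.0, 40.5 and 21.9 CPM at 22 h (log2 fold change -1.14, SE 0.233, adjusted p = 0.00640). Its late livers overlapped the early ones through 1 library of 22 h. Idi1, the isopentenyl diphosphate isomerase, changed by -1.30 (SE 0.305, adjusted p = 0.00750), from 2.72 to 6.47 CPM early to 0.516 to 3.06 CPM late, low levels at which 25.3% of its 50-base stretches are shared with other genes.

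The other genes of smallest p changed less. Tm7sf2, a sterol C14-reductase, fell by 0.59 on the log2 scale (adjusted p = 0.000786), Hsd17b7, a sterol ketoreductase, by 0.75 (adjusted p = 0.000875), Dhcr7 by 0.71 (adjusted p = 0.00324), Sc5d by 0.52 (adjusted p = 0.00449), Cyp51 by 0.74 (adjusted p = 0.00574), Msmo1 by 0.75 (adjusted p = 0.00683), Pmvk, the phosphomevalonate kinase, by 0.77 (adjusted p = 0.00684) and Insig1 by 0.65 (adjusted p = 0.0118). For Tm7sf2 the 18 h livers (87.9, 66.8 and 54.1 CPM) lay below all early ones (90.7 to 158.99 CPM), while the 22 h livers (103.03, 83.7 and 101.9 CPM) overlapped them. Pmvk was at 13.1, 13.2 and 13.0 CPM at 18 h, below every early liver (14.0 to 40.6 CPM).

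Abcg5, which with Abcg8 forms the pump that sends sterols into bile, was the 1 gene of the set that rose. It was at 119.4, 114.2 and 63.8 CPM fed, 130, 82.2 and 99.0 CPM at 2 h, 250, 172 and 237 CPM at 18 h and 127, 158.5 and 127 CPM at 22 h (late against early 0.78, SE 0.165, adjusted p = 0.00583). All 18 h livers lay above all early ones, and the 22 h livers overlapped them only through the 2 h library at 130 CPM. Abcg8, its partner, was at 102.03, 69.9 and 117.7 CPM at 18 h against 31.6 to 85.2 CPM early and was not called. These genes lie head to head on chromosome 17 (GRCm38), with the annotated spans 84658234 to 84683011 (Abcg5, minus strand) and 84676302 to 84700333 (Abcg8, plus strand) overlapping, and whether the counting used strand is not given in the sources used here.

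The sequencing lane limits the LIV comparison of late with early. The 0 and 2 h livers ran on 1 lane and the 12, 18 and 22 h livers on another, so only the 8 h livers, which were split, tie the lanes together. With lane as a covariate 0 of the 29 genes were called late against early, with 8 of 14023 genes called in all (0.0570%). Of the 29 fold changes 23 stayed negative, with a median of -0.28, against 0.02 over all genes. An unadjusted p under 0.05 was reached by 5 of the 29 and by 2223 of all 14023 genes, a similar share. Sqle then changed by -1.39 (SE 0.539, adjusted p = 0.234) and Insig1 by -0.07 (SE 0.341, adjusted p = 0.952). Within the first lane, where 2 livers of 8 h could be set against 3 fed ones, 5 genes were called at 8 h, all lower (Sqle, Hsd17b7, Msmo1, Cyp51 and Mvk; background 2.28%). Within the other lane 18 and 22 h against 12 h called none, with 4 of 13710 genes called in all (0.0292%). There 13 of the 29 genes, and 2014 of all 13710, had an unadjusted p under 0.05, and 23 of 29 were lower.

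The other contrasts add little for LIV and iBAT. At 8 and 12 h against 0 and 2 h, 4 genes were lower in LIV (Hsd17b7, Stard4, Sqle and Msmo1, by 0.49 to 0.70 on the log2 scale; background 18.0%) and 1 in iBAT (Sqle; background 0.0619%). None were called in BRN (2.94%), OB (0.185%), BST (0.0238%), CBL, STM, pgWAT or psWAT (all 0%). The joint test of the 6 times, which asks for any difference, called 17 of 29 genes in LIV (background 16.0%), 19 of 27 in iBAT (29%), 1 of 28 in STM (6.55%), 1 of 26 in CBL (2.99%), 1 of 26 in OB (15.4%) and none in BRN (0.00597%), BST (0.107%), pgWAT or psWAT (both 0%). In these last organs 4, 10, 7 and 12 of the set had an unadjusted p under 0.05 and DESeq2 called 1, 3, 3 and 10. The bracketed shares are for edgeR's adjusted p, and none is given for the unadjusted or DESeq2 counts.

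**Figure D4:**
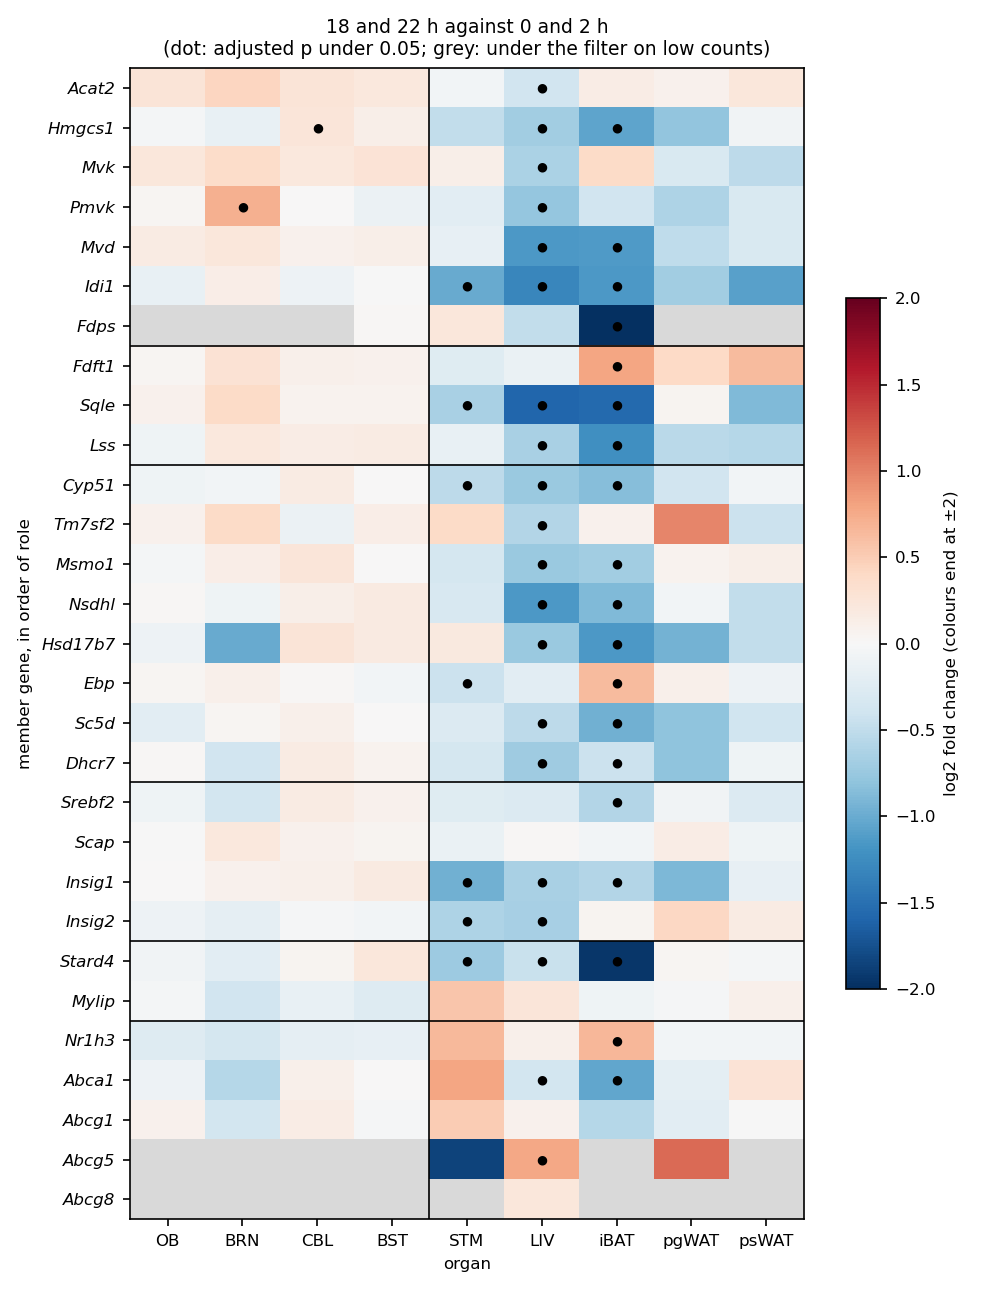
Log2 fold change of each of the 29 genes (rows, in order of role) at 18 and 22 h against 0 and 2 h in each of the 9 organs (columns); blue is lower and red is higher late, a dot marks an adjusted p under 0.05, and grey marks a gene under the filter on low counts. The dots are in LIV (20), iBAT (19), STM (7), BRN (1) and CBL (1).

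In iBAT, 19 of 27 genes were called late against early, 16 lower and 3 higher, but 36% of all genes were called there (19.4% lower), and without the 22 h libraries the count was 2. Stard4 showed the steepest fall among the 4 genes of smallest p, from 8.02 to 24.97 CPM early to 8.604, 5.50 and 6.15 CPM at 18 h and 0.956 and 2.78 CPM at 22 h (log2 fold change -1.94, SE 0.267, adjusted p = 0.000524). Lss, the lanosterol synthase, was at 46.4, 56.4 and 73.2 CPM fed, 33.5, 26.1 and 28.8 CPM at 2 h and 11.8 and 15.6 CPM at 22 h (log2 fold change -1.23, SE 0.178, adjusted p = 0.000684). Sqle fell by 1.55 on the log2 scale (adjusted p = 0.000487), and Fdft1 rose by 0.79 (SE 0.141, adjusted p = 0.00129), the latter through the 22 h libraries. Of the markers in iBAT, 2 of 3 for brown adipocytes and 2 of 4 for red blood cells rose late; their part in these changes was not tested.

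In STM, 7 of 28 genes fell late against early and none rose (background 22.7%, 12.0% lower). Insig1 was at 55.7 to 94.0 CPM early and at 33.2, 41.8 and 28.7 CPM at 18 h and 47.8, 46.6 and 24.4 CPM at 22 h, without overlap (log2 fold change -0.97, SE 0.172, adjusted p = 0.00159). Stard4, Insig2 and Sqle changed by -0.72, -0.62 and -0.65 (adjusted p = 0.00862, 0.0114 and 0.0174), and Cyp51, Idi1 and Ebp were also called. Abca1 was called at 18 h against 0 h (log2 fold change 1.55, SE 0.407, adjusted p = 0.0214; background 14.3%), with 43.8, 15.6 and 33.5 CPM beside the 8.57, 16.2 and 6.79 CPM of the fed stomachs. As in LIV, the early and late stomachs ran on different lanes, and with lane as a covariate 0 of the 28 genes were called, as were 0 of all 16281. An unadjusted p under 0.05 was then reached by 1 of the 28 and by 828 of all 16281. Late stomachs also held fewer adipocyte markers (3 of 3 fell) and parietal and chief cell markers (3 of 4 fell), and 2 of 3 neuron markers rose; their part was not tested. The count was 4 without 0 h replicate 1, 2 h replicate 3, 18 h replicate 1, 18 h replicate 3 or 22 h replicate 3, and 3 without 2 h replicate 1.

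In the nervous organs 2 genes were called late against early, and none were in the white fats. Pmvk rose in BRN (0.72, SE 0.162, adjusted p = 0.0197; background 7.43%), from 34.5 to 55.1 CPM early to 104.2 and 53.4 CPM at 18 h and 80.5, 74.1 and 59.9 CPM at 22 h. It was no longer called without any 1 of 6 BRN libraries: 0 h replicate 1, 2 h replicate 2 or 3, 18 h replicate 2, or 22 h replicate 1 or 2. Without 18 h replicate 3, 10 genes of the set were called, and without 22 h replicate 3 or 12 h replicate 2, 6 and 3. The share of all genes called in those fits is not given, so the higher counts do not speak for the set. Of 4 oligodendrocyte markers in BRN, 1 was called higher late, with fold changes of 0.36 to 1.00 on the log2 scale, and their sum ranged from 5008 to 10869 CPM early and from 5845 to 20413 CPM late. Hmgcs1 rose in CBL by 0.24 on the log2 scale (SE 0.0568, adjusted p = 0.0272; background 2.48%), from 140.6 to 170 CPM early to 160 to 199 CPM late; this call was not stable, with a count for CBL of 0 to 2 when single libraries were left out. In CBL, 2 of 4 oligodendrocyte markers were also called higher late (0.21 to 0.39 over the 4), with sums of 5002 to 7295 CPM early and 5903 to 8934 CPM late; the part of oligodendrocyte content in the BRN and CBL changes was not tested. No gene was called in OB (4.87%), BST (0.0775%), pgWAT (0.00609%) or psWAT (0%), where 3, 9, 6 and 2 genes of the set had an unadjusted p under 0.05 and DESeq2 called 2, 2, 2 and 0. Here too the bracketed shares do not apply to the unadjusted or DESeq2 counts. Differences that missed the threshold in pgWAT were not small for every gene: Insig1 had means of 301 and 83.5 CPM at 0 and 2 h and of 104.2 and 69.7 CPM at 18 and 22 h, and Dhcr7 of 18.7 and 10.7 CPM and then 8.69 and 7.56 CPM. The early pgWAT libraries ran on lanes 5 and 7 and the late ones on lane 6, so lane and time cannot be told apart there. In the joint test of the 6 times, Acat2 was called in OB (23.8 to 44.1 CPM over all libraries) and Msmo1 in CBL, where the 22 h cerebella, with 80.5, 92.3 and 79.98 CPM, lay above all 15 others (48.1 to 73.3 CPM). In BST Insig1 had the smallest joint p (adjusted p = 0.0517), with 173, 178 and 158 CPM at 22 h against 123.01 to 158 CPM at the other times. In pgWAT the 22 h replicate 2 library, poor in adipocyte markers, also had the lowest Insig1 (35.7 CPM) and Nr1h3 (22.5 CPM, against 107 to 187.4 CPM), and the 18 h replicate 2 library, which held 4071 CPM of hepatocyte markers, had the highest Abcg5 (5.38 CPM, against 0.161 to 1.91 CPM in the other pgWAT libraries) and Abcg8 (4.73 CPM, against 0 to 0.634 CPM).

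Whether the late change of an organ differed from the mean late change of the 8 other organs was tested in 1 fit of all libraries. The fit holds no lane term, so the lane split of early and late libraries in LIV, STM, OB and pgWAT cannot be told apart from the late change here either. LIV differed in 5 of 26 genes, all lower: Sqle by -1.20 (SE 0.275, adjusted p = 0.00794), Nsdhl by -0.90, Mvd by -0.99, Insig2 by -0.62 and Dhcr7 by -0.52, with 1.98% of all genes called. iBAT differed in 10 of 26 genes, 8 lower and 2 higher, but there 23.5% of all genes were called. STM differed in 5 genes (background 27.5%), pgWAT in 3 (5.63%) and BRN in 2 (8.29%), and none did in OB, CBL (both 0%), BST (0.00856%) or psWAT (0.531%). The LIV count was 8 without 4 libraries that stand apart, 2 without the filter on low counts, and 0 when the 5 libraries left out by the study were included.

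Where the genes are expressed was compared over all libraries, scaled across organs, with the mouse as a block and calls where the adjusted p was under 0.05 and the log2 fold change beyond 1 in size. LIV differed from the mean of the 8 other organs in 20 of 29 genes, 18 higher and 2 lower, against 51.7% of all genes (21.5% higher), with a median of 1.48 on the log2 scale over the set and -0.34 over all genes. Ebp, the sterol isomerase, had a median of 419 CPM in LIV and 49.5 CPM in STM, the next organ, without overlap of the libraries. Sc5d had 559 CPM in LIV and 142.8 CPM in BST, Tm7sf2 170 CPM in LIV and 21.4 CPM in BRN, and Dhcr7 100.1 CPM in LIV and 47.4 CPM in BST, again without overlap. Abcg5 and Abcg8 were at medians of 187.3 and 106 CPM in LIV and of 1.30 and 0.508 CPM in STM, the next organ. LIV was the highest organ by median for 17 of the 29 genes, though for Cyp51, Insig1, Insig2, Lss, Msmo1, Nsdhl, Hsd17b7, Nr1h3, Scap and Fdps its libraries overlapped those of the next organ.

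Outside LIV, Acat2, the cytosolic acetoacetyl-CoA thiolase, was highest in iBAT (214 CPM, against 79.7 CPM in pgWAT, without overlap), with the limit that 39.1% of its 50-base stretches occur in other genes, chiefly Acat3. Idi1 was highest in BST (23.3 CPM, against 10.9 CPM in CBL, without overlap), and Hmgcs1 and Sqle were also highest there (397 and 99.2 CPM) but overlapped LIV and STM. Abcg1 and Mylip were lowest in LIV (5.34 and 7.53 CPM) and highest in psWAT (69.7 and 81.8 CPM), the organ rich in lymphocyte markers, whose part in these levels was not tested. Their psWAT libraries overlapped those of the next organ, CBL for Abcg1 (56.1 CPM) and iBAT for Mylip (61.6 CPM). The nervous organs together differed from the 5 other organs in 10 genes, 3 higher and 7 lower (53.5% of all genes called): Abcg1, which exports sterols to lipoproteins, was higher by 1.91 (SE 0.0594) and Sqle by 1.23 on the log2 scale, while Abca1 was lower by 1.86 and Nr1h3 by 3.83. Msmo1 had medians of 161.9 CPM in LIV, 141.1 CPM in BST and 23.9 CPM in iBAT, the lowest organ.

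**Figure D5:**
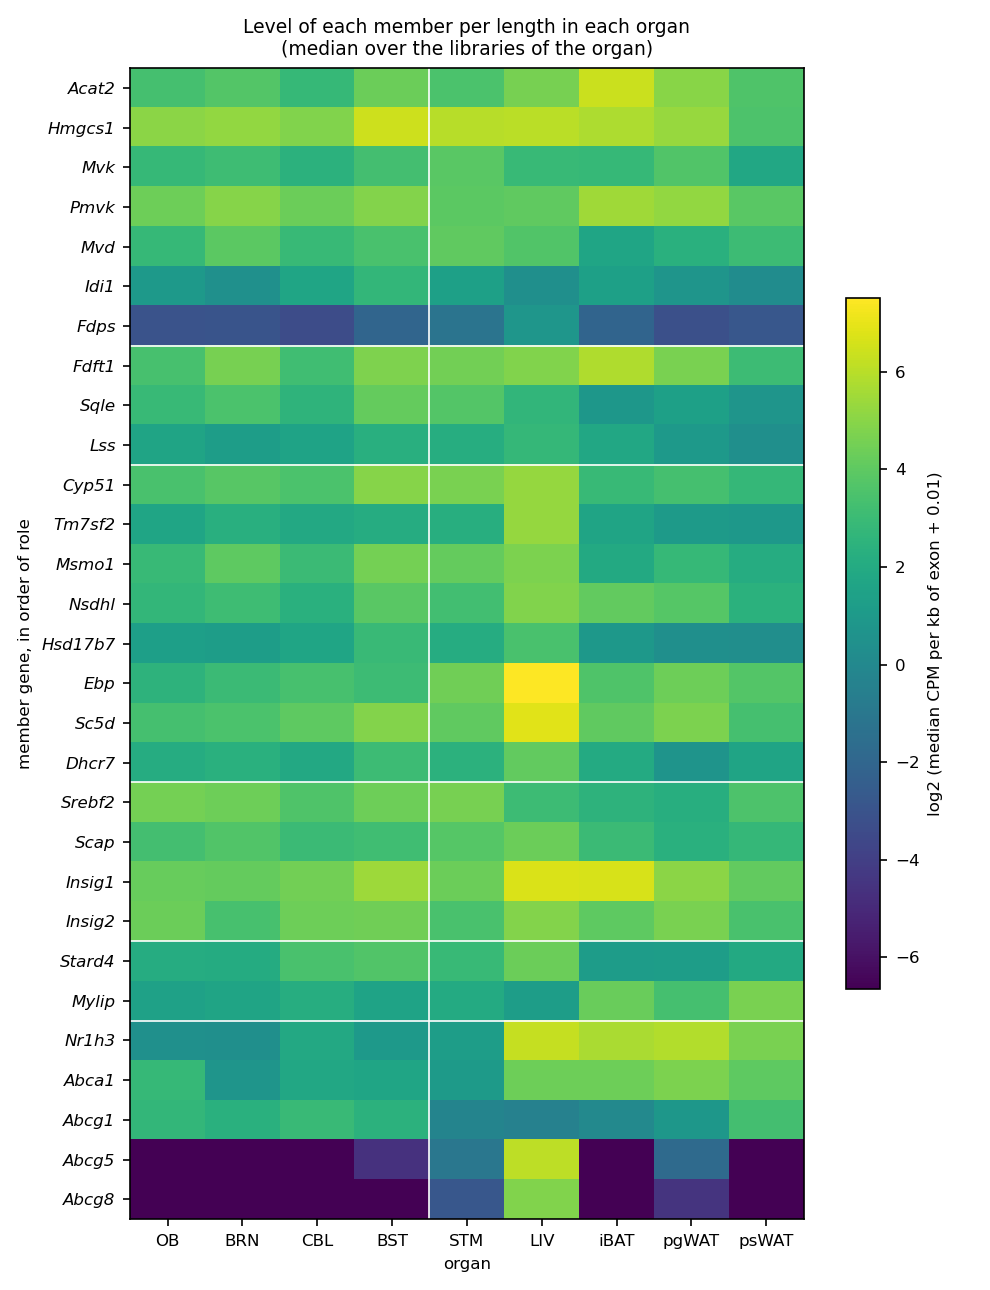
Level of each of the 29 genes (rows, in order of role) in each of the 9 organs (columns), as the log2 of the median CPM per kilobase of exon plus 0.01. Dividing by exon length allows genes to be compared within a column; Abcg5 and Abcg8 are bright in LIV alone, and Nr1h3 is dark in the 4 nervous organs.

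Of 20 further genes of cholesterol handling, listed with the set but not part of it, some were called late against early. They were 5 of 19 tested in STM (1 higher and 4 lower, background 22.7%), 4 of 18 in LIV (2 higher and 2 lower, 15.0%) and 4 of 14 in iBAT (2 higher and 2 lower, 36%). In CBL 2 of 17 (2.48%), in BRN 1 of 17 (7.43%) and in OB 1 of 17 (4.87%) were called, all higher. None were of 17 in BST (0.0775%) and pgWAT (0.00609%) or 19 in psWAT (0%). Npc2, which takes cholesterol out of the lysosome, rose in BRN (0.60), CBL (0.25), OB (0.23) and iBAT (0.89). Lipa, the lysosomal acid lipase, fell in STM (by 1.02 on the log2 scale) and in LIV (by 0.52). Soat2, which esterifies cholesterol for lipoproteins, rose in LIV (0.57, adjusted p = 0.0121), and Soat1, the widely expressed enzyme of the same reaction, fell in STM by 0.91 (adjusted p = 0.00720). Cyp27a1, a sterol 27-hydroxylase, rose in STM (1.35, adjusted p = 0.00159). The lane limits of LIV and STM given above hold for these genes too. In OB the early libraries ran on lane 3 and the late ones on lane 4, and with lane as a covariate 0 of all 16742 OB genes were called. The iBAT contrast includes the 22 h libraries, whose lanes held no other iBAT library analysed.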

How the data were processed

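Gene counts of 162 libraries (9 organs of 18 mice, 6 fasting times, 3 mice per time) were analysed. The authors deposited raw counts per gene: per the labels and the study's methods, poly(A) RNA was sequenced as stranded paired-end libraries, aligned to GRCm38.p5 with TopHat2 2.1.1, and uniquely mapped reads were counted over Gencode M16 exons with HTSeq 0.9.1; the strand setting of the counting is not given in the sources used here. The table held 0 columns that could not be matched to a sample. The 5 libraries that the study left out for low totals were left out here, except in an alternative; depth was 3045845 to 27801717 counts, which limits the precision of genes near 1 CPM.

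Each organ was fitted on its own in edgeR 4.0.16 (R 4.3.3) with 6 time groups: TMM scaling, robust dispersions and the quasi-likelihood test, p-values adjusted by Benjamini-Hochberg over all genes of the organ, and genes kept when 3 libraries reached the CPM that 10 counts make in the organ's median library. Fits across organs used the mouse as a block, with glmQLFit's newer dispersion method (legacy=FALSE); limma 3.58.1 (voom) was their alternative and DESeq2 1.42.0 that of the organ fits. SE is the fold change divided by the square root of F. The 3 mice of a time are different animals, and the p-values measure the spread between them. Replicate numbers name different mice at each time, with mean correlations of same-numbered deviations of -0.07 to 0.157 by organ, so they do not pair samples.

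The genes, the lists and the tests were chosen with earlier results of these data known. Full values are given for up to 12 genes with the smallest p in LIV late against early and up to 4 in each other organ; genes named in the 2 h comparison, and that comparison across organs, were picked after the values were seen. The organ fits of LIV and iBAT were tested on simulated late changes of 1.5, 2 and 4 times, at a fixed dispersion and without lane effects. Of changes of 1.5 times, 55.5% were recovered in LIV and 47% in iBAT. The fits across organs and those with lane were not simulated. Exon sharing between genes was counted over 50-base stretches of Gencode M21 exons on GRCm38. Plots were drawn with matplotlib 3.10.9 in Python 3.11.15.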

Additional observations from a re-analysis of the deposited data

Results flagged for a closer look

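The late change (18 and 22 h minus 0 and 2 h, log2) of 1 organ differed from the mean late change of the 8 other organs for 25 pairs of gene and organ, at an adjusted p under 0.05 in edgeR's quasi-likelihood test over 11679 genes. A value below 0 means that the gene fell more, or rose less, in that organ.

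In LIV, where 1.98% of all genes were called, these were Dhcr7 (-0.52), Insig2 (-0.62), Mvd (-0.99), Nsdhl (-0.90) and Sqle (-1.20). In iBAT, where the 2 libraries of 22 h weigh heavily and 23.5% of all genes were called, they were Abca1 (-0.68), Cyp51 (-0.69), Ebp (0.74), Lss (-0.93), Mvd (-1.15), Nr1h3 (0.75), Nsdhl (-0.67), Sc5d (-0.73), Sqle (-1.35) and Stard4 (-1.37).

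In STM they were Abca1 (0.93), Abcg1 (0.61), Ebp (-0.48), Insig2 (-0.53) and Mylip (0.66). Of all genes, 27.5% were called in this STM comparison. In BRN they were Pmvk (0.95) and Sqle (0.85), 2 of 26 genes tested, which is no excess over the 8.29% of all genes called there. In pgWAT, where 5.63% of all genes were called, they were Dhcr7 (-0.66), Insig2 (0.57) and Tm7sf2 (0.90). OB, CBL, BST and psWAT had none. In LIV, STM and pgWAT, lane changes together with early and late, so lane and time cannot be told apart in these values. Tm7sf2 in pgWAT varied widely between late libraries, from 7.49 to 41.2 CPM at 18 h and from 8.88 to 57.5 CPM at 22 h.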

How the results depend on the processing

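Counts are of the genes of the set called, against these main counts. Late against early: LIV 20, iBAT 19, STM 7, BRN 1, CBL 1, none in OB, BST, pgWAT and psWAT. Middle (8 and 12 h) against early: LIV 4, iBAT 1, none elsewhere. Joint test: LIV 17, iBAT 19, STM, CBL and OB 1, none in BRN, BST, pgWAT and psWAT. At any time against 0 h: LIV 22, iBAT 20, STM 6, BRN 2, CBL 2, OB 1, none in BST, pgWAT and psWAT. At 2 h against 0 h: LIV 3, iBAT 5. Only counts that moved by over 1.5 times follow, and the cause was not tested unless said. The share of all genes called is not given beside these counts, so they show how stable the calls are and not an excess of the set.

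With DESeq2, late counts were BRN 4, CBL 2, BST 2, OB 2, pgWAT 2 and STM 11, middle counts BRN 2 and iBAT 4, joint counts BRN 1, BST 3, CBL 4, OB 2, STM 4, pgWAT 3 and psWAT 10, counts at any time BRN 6, OB 3, pgWAT 7 and psWAT 6, and counts at 2 h LIV 7 and iBAT 9. With no filter on low counts, late counts were BRN 2, BST 4, CBL 2 and OB 2, middle counts BRN 1, LIV 7 and iBAT 2, joint counts BRN 1, BST 5, CBL 5, OB 2 and STM 2, counts at any time BST 1 and OB 3, and the count at 2 h in LIV 11. RLE scaling gave BST 1 (joint), CBL 2 (late) and OB 2 (any time). With log2 fold changes over 1 also required, fewer genes could pass: late counts were LIV 4, iBAT 9, STM 1, BRN 0 and CBL 0, the middle count in LIV was 0, and counts at any time were STM 3, BRN 0, CBL 0 and OB 0.

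With lane as a covariate, late counts were LIV 0, STM 0 and BRN 0, the middle count in LIV was 1, joint counts were LIV 4, STM 0 and OB 0, and counts at any time LIV 5, STM 0, BRN 0 and OB 0, while the count at 2 h in LIV stayed at 3; the early and late libraries of LIV, STM and OB share a lane only through 8 h. The libraries of the first lane alone (chosen after seeing the data) gave 6 at 2 h in LIV. Lane could not be fitted with all iBAT times, and without the 22 h libraries (chosen after seeing the data) it gave 0 at 2 h in iBAT; it was not run for CBL and BST, which have 1 lane. With all libraries, late counts were STM 3 and BRN 0, the middle count in iBAT was 0 and the count at any time in BRN 0. Without the libraries that stand apart, the late count in BRN was 0. With 0 h alone as the reference (chosen after seeing the data), late counts were BRN 4 and CBL 0 and middle counts BRN 2, LIV 8 and iBAT 8. Without the 22 h libraries (also chosen after seeing the data), iBAT gave 9 (joint), 2 (late) and 2 (middle).

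With the replicate number as a block, which does not pair mice here, counts were LIV 5 (2 h), STM 4 (late), BST 1 (joint), and at any time BRN 1 and OB 2; no other count of the set moved by over 1.5 times.

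Leaving out 1 library at a time gave at 2 h LIV 0 to 5 and iBAT 0 to 7; late, BRN 0 to 10, BST 0 to 3, CBL 0 to 2, OB 0 to 1, STM 3 to 9, LIV 15 to 20 and iBAT 13 to 20; middle, BRN 0 to 1, OB 0 to 2, LIV 1 to 5 and iBAT 0 to 2; joint, BRN 0 to 3, BST 0 to 2, CBL 0 to 3, OB 0 to 4, STM 0 to 4, LIV 13 to 20 and iBAT 12 to 21; and at any time BRN 0 to 10, CBL 0 to 2, OB 0 to 4, STM 1 to 12, LIV 16 to 23 and iBAT 15 to 22. The added comparison of the 2 h change outside and inside the nervous system gave 4 to 8 genes without single mice and 6 to 9 under its other alternatives. The comparison of LIV's late change with other organs (5) gave 8 without 4 libraries that stand apart, 2 without the filter and 0 with all libraries. No gene called in an organ turned its direction under any alternative run.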
